A study of Mus musculus with 6 samples.

Results

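The interleukin-6 (IL-6) family of cytokines and their receptors was followed in articular cartilage of KO and wildtype mice. Its members were taken by matching the gene name in the deposited table, which gave 10 of the 34709 genes: the ligands Il6, Il11, Lif and Osm, the receptor chains Il6ra, Il6st, Lifr and Osmr, the transcription factor Stat3 and its inhibitor Socs3. Cartilage RNA was sequenced in 6 libraries, 3 labelled KO and 3 labelled wildtype. Per the study's methods and the column headers, the mice were males aged 18 months, and no treatment is named for either group. The KO line was purchased, no promoter or Cre driver is named for it, and wildtype mice were littermates. The study's methods call its samples independent, but the labels do not say which or how many animals stood behind a library, so the p-values measure only the spread between these samples, which may be technical.

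Cytokines of this family act through receptor complexes that share the signalling chain gp130, the product of Il6st. IL-6 and IL-11 first bind their own receptor chain, Il6ra in the case of IL-6, whereas LIF joins gp130 to Lifr and oncostatin M joins gp130 to Osmr or, depending on species, to Lifr. The complexes switch on JAK kinases, which phosphorylate STAT3, and STAT3 in turn induces Socs3, which binds gp130 and shuts the signal down. In joint tissue, IL-6 and oncostatin M are known for driving matrix breakdown, and the family also acts on bone and blood cell formation.

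The libraries held 52268311 to 63331135 counts. KO replicates 2 and 3 differed from each other far less than any other pair of libraries did: the squared difference of their counts was 5.79 times that of Poisson sampling at the median gene, against 23.3 to 83.1 times in the other 14 pairs. They were therefore averaged and counted as 1 sample, which left 2 KO and 3 wildtype samples. KO replicate 1 stood apart from this pair (63.1 and 63.9 times) and was closer to wildtype replicates 2 and 3 (24.2 and 38.2 times), and values with and without it are given below. The chondrocyte markers Prg4 (402 to 1034 FPKM), Col2a1 (12.4 to 21.3 FPKM) and Acan (13.2 to 22.8 FPKM) were read in every library, whereas Matn3 was at 0 in 3 of the 6. Neutrophil markers summed to 26880 to 62171 FPKM per library and erythroid markers to 11317 to 47999 FPKM, far above the chondrocyte sum of 524 to 1213 FPKM. FPKM, which divides the fragments of a gene by transcript length and library total, allows levels of different genes to be compared.

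In wildtype cartilage Il6ra, Il6st, Lifr, Stat3 and Socs3 lay between the percentiles 59.4 and 75.3 of all tested genes and Osmr at 23.4, whereas Lif, Il6 and Il11 lay near the bottom. Socs3 and Osm were higher in every KO library than in every wildtype library, and Lif was lower in every KO library. Il6ra and Stat3 were higher in the mean of the KO samples, a difference carried by KO replicates 2 and 3. No member passed the threshold of an adjusted p of 0.05 in edgeR's quasi-likelihood test, where 0% of the 15373 genes tested did.

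**Figure D1:**
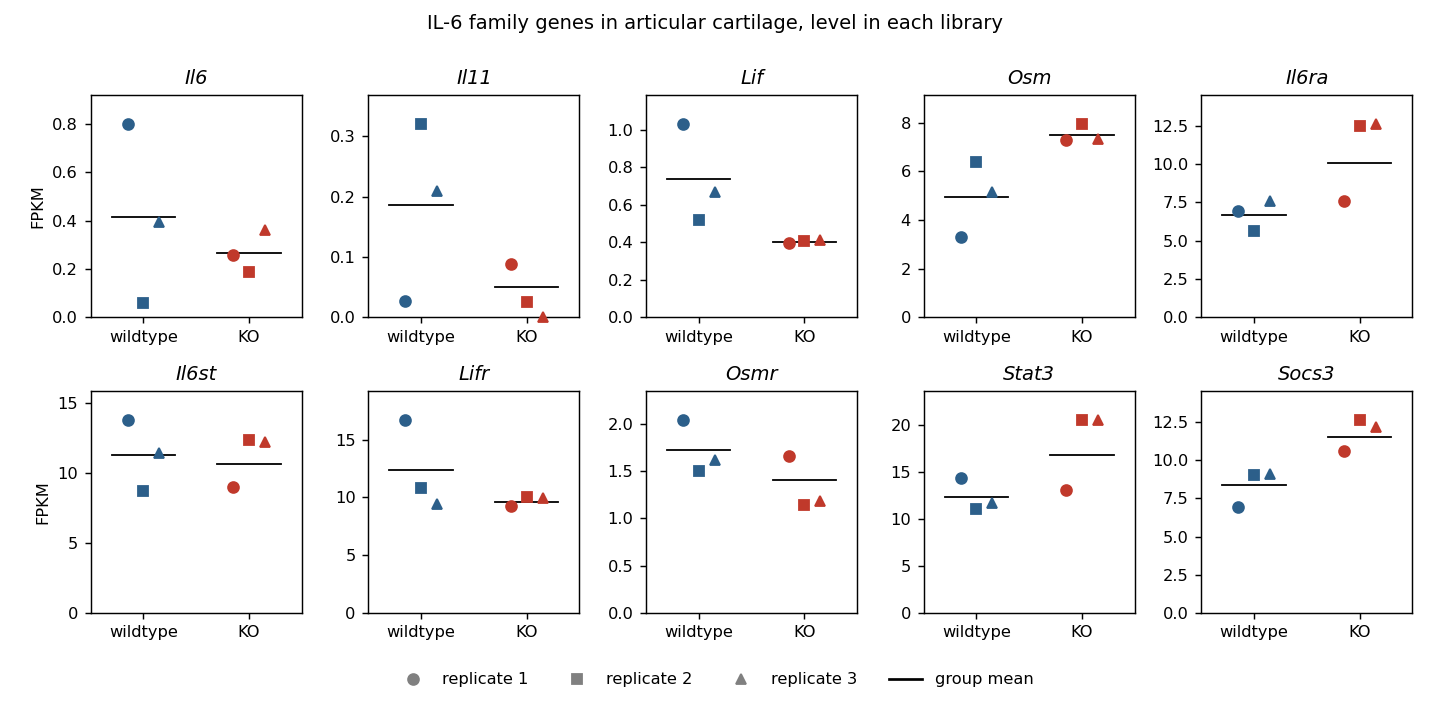
Level of each of the 10 members in FPKM (vertical axes, starting at 0, scaled per gene) in the 3 wildtype and 3 KO libraries of articular cartilage, with the replicate number as the symbol and the group mean as a line (KO replicates 2 and 3 counted as 1 sample). Osm and Socs3 lie higher and Lif lower in all 3 KO libraries than in any wildtype library, and KO replicate 1 lies among the wildtype libraries for Il6ra and Stat3.

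Bases before the transcription start are shown for 3 of the 4 members whose promoters carry a motif of the pathway's transcription factors. RefSeq promoter sequences (GRCm38.p6) were held for 9 of the 10 members, Osm being the exception, in 11 windows of 250 bases. The spaced palindrome TTCNNNGAA, which STAT dimers bind, was searched on both strands and was present in 7.02% of 32851 such windows in the genome. Among the members it was found only in Socs3, 154 bases before the start. TGANTCA, bound by the Fos and Jun dimer AP-1, was present in 6.75% of all windows, and in the members Il6, Il11 and Lif, 249, 98 and 228 bases before the RefSeq start. No window of a member held both motifs, and a match is a description of the letters, not of a bound site. The Socs3 window is chr11:117969367-117969616 on the minus strand, upstream of the coding transcript but inside the span that the deposited table gives the gene. That of Lif is chr11:4257318-4257556 (plus strand, ending where the gene begins in the deposited table, 11 bases short of the RefSeq start), and that of Il6 is chr5:30012864-30013113 (plus strand). Capitals mark TTCNNNGAA in Socs3 and TGANTCA in Lif and Il6.
Socs3: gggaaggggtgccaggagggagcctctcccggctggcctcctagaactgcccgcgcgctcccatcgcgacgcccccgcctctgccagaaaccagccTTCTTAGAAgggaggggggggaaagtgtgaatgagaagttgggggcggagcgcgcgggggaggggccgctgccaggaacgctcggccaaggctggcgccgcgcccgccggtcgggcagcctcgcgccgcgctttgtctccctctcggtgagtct
Lif: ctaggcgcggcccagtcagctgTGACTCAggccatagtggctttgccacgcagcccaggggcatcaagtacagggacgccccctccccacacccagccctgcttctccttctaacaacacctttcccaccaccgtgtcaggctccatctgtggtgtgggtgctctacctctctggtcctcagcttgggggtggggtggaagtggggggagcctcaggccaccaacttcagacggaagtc
Il6: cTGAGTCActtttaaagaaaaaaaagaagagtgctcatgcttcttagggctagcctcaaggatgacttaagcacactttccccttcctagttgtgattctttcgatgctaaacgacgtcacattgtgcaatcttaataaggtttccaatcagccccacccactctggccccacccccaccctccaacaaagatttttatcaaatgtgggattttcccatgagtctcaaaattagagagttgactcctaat

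Of the ligands, oncostatin M was the one with an appreciable level. Osm (ENSMUSG00000058755, chr11:4236420-4241026, GRCm38, plus strand), a cytokine made mainly by leukocytes, was read at 7.30, 7.94 and 7.34 FPKM in KO replicates 1 to 3 and at 3.28, 6.39 and 5.14 FPKM in wildtype replicates 1 to 3. All 3 KO libraries lay above all 3 wildtype libraries, and the KO libraries lay closer together than the wildtype ones. The mean of the KO samples was 7.47 ± 0.241 FPKM (SD, n = 2) and that of the wildtype samples 4.93 ± 1.57 FPKM (SD, n = 3). The log2 difference, KO minus wildtype, was 0.60 ± 0.29 (SE, 95% interval -0.088 to 1.297), with an edgeR p of 0.0779 and an adjusted p of 0.439. The difference was 0.37 without wildtype replicate 1, the library with the lowest Osm, and 0.87 without wildtype replicate 2.

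Lif (ENSMUSG00000034394, chr11:4257557-4272514, plus strand), leukemia inhibitory factor, lies 16.5 kb downstream of Osm with 0 genes between them. It was read at 0.395, 0.406 and 0.411 FPKM in the KO libraries and at 1.03, 0.517 and 0.669 FPKM in the wildtype libraries. The order was the opposite of that of its neighbour, with every KO library below every wildtype library. The means were 0.402 ± 0.00962 FPKM (SD, n = 2) for KO and, for wildtype, 0.739 ± 0.264 FPKM (SD, n = 3), and the log2 difference was -0.84 ± 0.35 (SE, 95% interval -1.67 to -0.016, unadjusted edgeR p of 0.0468 and adjusted p of 0.357). Lif passed the filter of a mean of 0.5 FPKM only through its wildtype level, and without wildtype replicate 1 its log2 difference was -0.55. The ratio of Osm to Lif within a library, chosen after these values were seen and not tested, was 18.5, 19.6 and 17.9 in KO and 3.18, 12.4 and 7.68 in wildtype.

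Il6 (ENSMUSG00000025746, chr5:30013114-30019981, plus strand), the founding cytokine of the family, was below the filter. Its levels were 0.259, 0.189 and 0.361 FPKM in KO and 0.800, 0.0572 and 0.393 FPKM in wildtype, from 34 to 63 and from 9 to 130 counts. The wildtype libraries spanned the whole range of the KO libraries. With no filter the log2 difference was -0.54 ± 0.76 (SE, edgeR adjusted p = 0.845).

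Il11 (ENSMUSG00000004371, chr7:4772373-4782857, minus strand), a cytokine of connective tissue cells, was lower still, at 0.0879, 0.0253 and 0 FPKM in KO and 0.0276, 0.321 and 0.210 FPKM in wildtype. The counts were 11, 4 and 0 in KO and 4, 41 and 28 in wildtype, and the groups overlapped through wildtype replicate 1. A count of 0 in KO replicate 3 allows up to 3 counts, or 0.0474 CPM (a count scaled to the library total), if a count is 1 read pair, and 0.189 CPM if a pair makes 4 counts, as the pile-up of low counts at 4 leaves possible. This floor covers counting error only. With no filter the log2 difference was -1.83 ± 1.14 (SE, edgeR adjusted p = 0.761). For both Il6 and Il11 the range of the wildtype libraries was wider than the difference of the group means.

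Among the receptor chains, Il6ra differed most between the groups. Il6ra (ENSMUSG00000027947, chr3:89864059-89913196, minus strand), the ligand-binding chain for IL-6 and best known from hepatocytes and leukocytes, was read at 7.57, 12.5 and 12.6 FPKM in KO and at 6.93, 5.63 and 7.57 FPKM in wildtype. KO replicates 2 and 3 were above every other library, whereas KO replicate 1 and wildtype replicate 3 had nearly the same level, so that the groups overlapped in FPKM. This overlap depended on the scaling. As log2 CPM relative to the wildtype mean, KO replicate 1 (0.26) lay above the highest wildtype library (0.18 in wildtype replicate 3). The log2 difference was 0.60 ± 0.20 (SE, 95% interval 0.12 to 1.07, unadjusted edgeR p of 0.0215 and adjusted p of 0.267). Without KO replicate 1 it was 0.87 (adjusted p = 0.0541, edgeR), and with that library as the only KO sample it was 0.26. Il6ra overlaps Gm42809 on the opposite strand, and whether strand was used in counting was not stated.

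Il6st (ENSMUSG00000021756, chr13:112464070-112510086, plus strand), which encodes the shared chain gp130, was read at 8.95, 12.3 and 12.2 FPKM in KO and at 13.8, 8.66 and 11.4 FPKM in wildtype. The wildtype libraries enclosed all 3 KO libraries. The means were 10.6 ± 2.36 FPKM (SD, n = 2) and 11.3 ± 2.56 FPKM (SD, n = 3), and the log2 difference was -0.069 ± 0.20 (SE, 95% interval -0.53 to 0.39, edgeR adjusted p = 0.940). Its sign turned without KO replicate 1 (0.094) or without wildtype replicate 1 (0.076).

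Lifr (ENSMUSG00000054263, chr15:7090614-7197489, plus strand), which pairs with gp130 for LIF, was read at 9.25, 9.9996 and 9.94 FPKM in KO and at 16.7, 10.8 and 9.45 FPKM in wildtype. Wildtype replicate 1 stood above the other libraries, which lay within 9.25 and 10.8 FPKM. The log2 difference was -0.34 ± 0.23 (SE, 95% interval -0.87 to 0.20, edgeR adjusted p = 0.607), and -0.083 without wildtype replicate 1.

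Osmr (ENSMUSG00000022146, chr15:6813577-6874969, minus strand), the chain that pairs with gp130 for oncostatin M, is the neighbour of Lifr, 215.6 kb away with 0 genes between them. It was the least abundant receptor chain, at 1.66, 1.14 and 1.19 FPKM in KO and 2.05, 1.50 and 1.62 FPKM in wildtype. KO replicate 1 lay within the wildtype range and KO replicates 2 and 3 below it. The log2 difference was -0.25 ± 0.23 (SE, 95% interval -0.79 to 0.28, edgeR adjusted p = 0.725). It was -0.60 without KO replicate 1 and 0.031 with that library as the only KO sample.

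Downstream of the receptors, Stat3 (ENSMUSG00000004040, chr11:100885098-100939540, minus strand) had the highest mean of the family in both groups. It was read at 13.2, 20.6 and 20.6 FPKM in KO and at 14.4, 11.1 and 11.7 FPKM in wildtype. As for Il6ra in FPKM, KO replicates 2 and 3 were above all other libraries and KO replicate 1 lay within the wildtype range. The means were 16.9 ± 5.28 FPKM (SD, n = 2) and 12.4 ± 1.79 FPKM (SD, n = 3), and the log2 difference was 0.46 ± 0.19 (SE, 95% interval 0.016 to 0.90, unadjusted edgeR p of 0.0439 and adjusted p of 0.348). It was 0.70 without KO replicate 1 (adjusted p = 0.0783, edgeR) and 0.17 with that library as the only KO sample. Stat3 overlaps Stat5a on the opposite strand.

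Socs3 (ENSMUSG00000053113, chr11:117966079-117970047, minus strand), the feedback inhibitor that STAT3 induces and the member with the TTCNNNGAA motif shown above, was read at 10.6, 12.7 and 12.2 FPKM in KO and at 6.94, 9.06 and 9.11 FPKM in wildtype. The groups did not overlap. The means were 11.5 ± 1.27 FPKM (SD, n = 2) and 8.37 ± 1.24 FPKM (SD, n = 3). The log2 difference was 0.47 ± 0.18 (SE, 95% interval 0.051 to 0.90, unadjusted edgeR p of 0.0328 and adjusted p of 0.311). Leaving out single libraries moved it between 0.34 and 0.56, the lowest value being that without wildtype replicate 1.

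Ordered by level, the wildtype mean ran from Stat3 (12.4 FPKM) through Lifr (12.3), Il6st (11.3), Socs3 (8.37), Il6ra (6.71) and Osm (4.93) to Osmr (1.72), Lif (0.739), Il6 (0.417) and Il11 (0.186 FPKM). Each of the 6 most abundant members overlapped its neighbour in the range of the wildtype libraries, and so did Lif with Il6 and Il6 with Il11, whereas Osmr stood apart on both sides. In the KO samples Stat3 (16.9 FPKM) stood apart at the top, followed by Socs3 (11.5), Il6st (10.6), Il6ra (10.1) and Lifr (9.61), which overlapped in that order. Osm (7.47), Osmr (1.41), Lif (0.402) and Il6 (0.267 FPKM) each stood apart from the next. Against all tested genes, the wildtype level of Stat3 and Lifr was at the percentile 75.3, that of Osm at 50.2, that of Lif at 6.86 and that of Il6 at 0.436.

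Over the family, 4 of the 8 tested members had an unadjusted p under 0.05, Il6ra, Stat3 and Socs3 with higher and Lif with lower values in KO, and 13.7% of all tested genes did (7.63% higher and 6.07% lower). Levels in FPKM did not overlap between the groups in 3 of the 8 tested members (Osm and Socs3 higher, Lif lower), against 28.6% of all genes in the 5 samples and 25.0% in the 6 libraries. The share of non-overlapping members was thus close to the background. The log2 difference was above 0 in 4 members and below 0 in 4, with a median of 0.19, against -0.016 over all tested genes, 47.5% of which were above 0. Because the members were a fixed and small list, one of which passed the filter through a single group, these counts are a description.

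**Figure D2:**
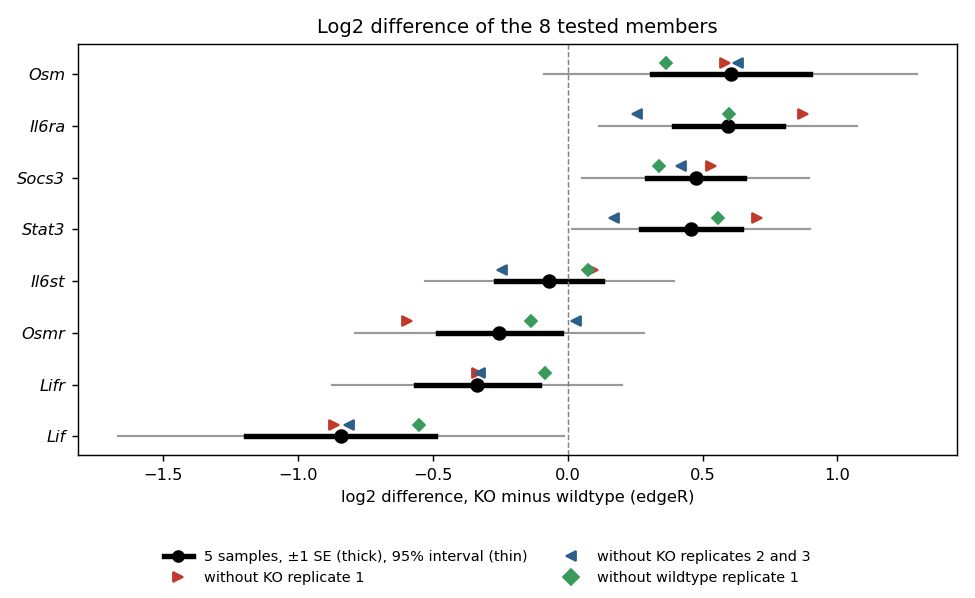
Log2 difference, KO minus wildtype, of the 8 tested members from edgeR on 5 samples (black points, thick bars ± 1 SE, thin bars 95% intervals), with the estimate without KO replicate 1, without KO replicates 2 and 3 and without wildtype replicate 1 as coloured symbols. The thin bars of Il6ra, Socs3, Stat3 and Lif do not reach 0 before adjustment, and the symbols lie farthest apart for Il6ra, Stat3 and Osmr, whose estimates without KO replicate 1 are 0.87, 0.70 and -0.60.

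Treating the 6 libraries as 3 against 3 left every member above an adjusted p of 0.05 in edgeR. The adjusted p was 0.077 for Il6ra, 0.1003 for Socs3, 0.107 for Stat3, 0.130 for Lif and 0.214 for Osm, where 570 genes (3.71%) were called. DESeq2 on the 5 samples called 879 genes (5.72%) and no member. Without KO replicate 1, 352 genes (2.29%) and no member were called, and Il6ra, Stat3 and Osmr had an unadjusted p under 0.05, as did 20.7% of genes. Osm joined Il6ra, Stat3, Socs3 and Lif at an unadjusted p under 0.05 with the 6 libraries as labelled (22.2% of genes) and with no filter (8.01%). Without wildtype replicate 2 such a p was found for Lif, Osm and Socs3 (12.2%). Without wildtype replicate 1 this held for Stat3 alone (9.35% of genes), without wildtype replicate 3 for Il6ra and Socs3 (1384 of 15373 genes), without KO replicates 2 and 3 for no member (9.82%), and with limma on FPKM for Socs3 alone (11.7% of genes at a pseudocount of 1 and 11.9% at 0.1). The share of genes was 18.3% with a term for the replicate number. The lowest adjusted p of any member over the 15 alternatives was 0.0541, for Il6ra without KO replicate 1.

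How the members stood to each other within a library was measured by 4 ratios of FPKM, for which the exact permutation test of 2 against 3 samples (two-sided) cannot give a p below 0.2. Il6ra relative to Il6st, the binding chain relative to the shared chain, was 0.846, 1.01 and 1.03 in KO and 0.502, 0.649 and 0.665 in wildtype. The groups did not overlap, the ratio being 1.55 times as high in KO (log2 difference 0.63, exact permutation p = 0.2, Benjamini-Hochberg adjusted 0.4). The share of other gene pairs whose ratio does not overlap was not measured. Of single genes, 28.6% did not overlap in the 5 samples and 25.0% in the 6 libraries. Unlike the FPKM of Il6ra itself, the ratio of Il6ra to Il6st was above the wildtype range in KO replicate 1 too. In that library Il6ra (7.57 FPKM) was near wildtype replicate 3, and Il6st (8.95 FPKM) was near its lowest wildtype value (8.66 FPKM). The log2 difference of the ratio stayed between 0.49 and 0.77 when libraries were left out.

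Osm relative to its receptor Osmr was 4.40, 6.96 and 6.18 in KO and 1.60, 4.26 and 3.17 in wildtype. The groups did not overlap here either, with KO replicate 1 just above wildtype replicate 2. The ratio was 1.93 times as high in KO (log2 difference 0.95, exact permutation p = 0.2, adjusted 0.4), and between 0.55 and 1.25 on the log2 scale with libraries left out. The other two ratios did not separate the groups. Osmr relative to Lifr was 0.179, 0.114 and 0.119 in KO and 0.122, 0.139 and 0.172 in wildtype (log2 difference 0.020, exact permutation p = 1). Socs3 relative to Stat3 was 0.809, 0.614 and 0.592 in KO and 0.481, 0.820 and 0.778 in wildtype (log2 difference 0.050, exact permutation p = 1). In both, KO replicate 1 was on the other side of KO replicates 2 and 3, and both signs turned without it (-0.29 and -0.16).

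**Figure D3:**
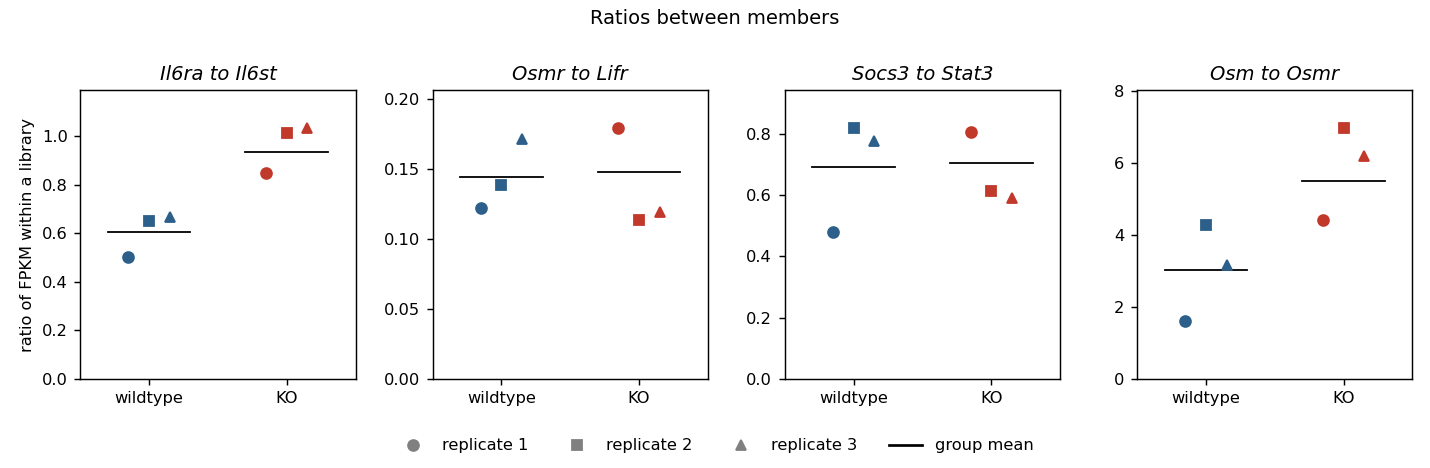
Ratio of the FPKM of a pair of members within each library (vertical axes, no unit, starting at 0) in the wildtype and KO libraries, with replicate numbers as symbols and group means as lines. Il6ra to Il6st (0.846 to 1.03 in KO, 0.502 to 0.665 in wildtype) and Osm to Osmr (4.40 to 6.96 and 1.60 to 4.26) separate the groups, and Osmr to Lifr and Socs3 to Stat3 do not.

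The genes most like Il6st in their course over the 6 libraries, by the root mean square difference of log2 CPM with the wildtype mean set to 0, were Anxa6 (0.0259), Ctnnd1 (0.0310) and Mtx3 (0.0346). Those most like Il6ra, the member with the lowest p, were Dock8 (0.0360), Myh9 (0.0460) and Fmnl1 (0.0541). Dock8 and Fmnl1 are known as cytoskeletal regulators of leukocytes, and Myh9 encodes a nonmuscle myosin heavy chain.

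The other genes of the pathway were taken from 7 lists with 59 genes, of which 53 were tested. None passed an adjusted p of 0.05 in edgeR (lowest 0.166), and 12 had an unadjusted p under 0.05, 8 with higher and 4 with lower values in KO, where 13.7% of all tested genes had one (7.63% higher and 6.07% lower). Of the 53, 40 had a log2 difference above 0, with a median of 0.21, against 47.5% and -0.016 over all tested genes.

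Among 4 tested related ligands, Ebi3 and Clcf1 lay in opposite directions. Ebi3, a subunit shared by IL-27 and IL-35, was read at 19.0, 17.8 and 20.1 FPKM in KO and at 10.9, 12.4 and 11.5 FPKM in wildtype. The groups were wide apart, with a log2 difference of 0.72 ± 0.16 (SE, unadjusted edgeR p of 0.00277 and adjusted p of 0.168). Clcf1, which signals through gp130 and Lifr, was read at 2.76, 2.20 and 2.21 FPKM in KO and at 6.80, 3.39 and 3.92 FPKM in wildtype (log2 difference -0.88 ± 0.31, SE, edgeR adjusted p = 0.282). Like Lif, it was highest in wildtype replicate 1.

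Of 3 tested related receptors, Il27ra, the ligand-binding chain for IL-27, was read at 1.29, 1.78 and 1.73 FPKM in KO and at 3.16, 2.78 and 2.65 FPKM in wildtype. It was lower in every KO library (log2 difference -0.90 ± 0.21, SE, unadjusted edgeR p of 0.00383 and adjusted p of 0.175), whereas Ebi3, part of its ligand, was higher in every KO library. Cntfr, the receptor chain for CNTF, had a log2 difference of 0.43 (edgeR adjusted p = 0.814). Il11ra2 and Il31ra were not tested.

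None of the 6 kinases and other STATs and none of the 7 adaptors and receptor proteases had an unadjusted p under 0.05. The log2 differences closest to the threshold were 0.27 for the kinase Tyk2 (edgeR adjusted p = 0.519), 0.23 for Stat5b (0.542), 0.26 for the adaptor Grb2 (0.434) and -0.33 for Gab1 (0.571), a docking protein of gp130 signalling. The medians of these lists were 0.11 and 0.082. Of 7 inhibitors and phosphatases, Ptpn6, the phosphatase SHP-1 of blood cells, was read at 87.8, 124 and 125 FPKM in KO and at 75.4, 71.0 and 84.2 FPKM in wildtype (log2 difference 0.48 ± 0.17, SE, edgeR adjusted p = 0.273). Socs2, an inhibitor best known from growth hormone signalling, was read at 0.772, 0.608 and 0.690 FPKM in KO and at 1.301, 1.02 and 0.907 FPKM in wildtype. Both separated the groups, Ptpn6 upwards and Socs2 downwards (log2 difference -0.57 ± 0.23, SE, edgeR adjusted p = 0.349), so that Socs2 lay opposite to Socs3.

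The 16 genes listed as STAT3 targets held 5 with an unadjusted p under 0.05, 4 with higher and 1 with lower values in KO, against 13.7% of all tested genes, and the list median was 0.21. Lrg1, a secreted glycoprotein also stored in neutrophil granules, was read at 64.8, 115 and 117 FPKM in KO and at 36.2, 42.1 and 43.4 FPKM in wildtype. Its log2 difference of 1.16 ± 0.22 (SE, unadjusted edgeR p of 0.00111 and adjusted p of 0.166) had the lowest p of the 53 genes, with every KO library above every wildtype library. Cebpd and Bcl6, transcription factors of inflammatory and of B cell programmes, also lay higher in every KO library. Their log2 differences were 0.64 ± 0.21 and 0.35 ± 0.14 (SE, edgeR adjusted p of 0.247 and 0.325). For Bcl6 the gap was narrow, with 7.62 FPKM in KO replicate 1 against 7.59 FPKM in wildtype replicate 1.

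Cebpb, a transcription factor of the acute-phase response, was read at 26.8, 9.39 and 4.62 FPKM in KO and at 3.60, 6.04 and 6.08 FPKM in wildtype. Its log2 difference of 1.74 ± 0.54 (SE, edgeR adjusted p = 0.237) rested on KO replicate 1, and KO replicate 3 lay within the wildtype range. Ccnd1, cyclin D1, was lower in every KO library, at 3.73, 3.03 and 2.90 FPKM against 7.42, 4.10 and 6.18 FPKM (log2 difference -0.78 ± 0.26, SE, edgeR adjusted p = 0.257). Cells induce immediate-early genes within minutes of a stimulus, and tissue dissection also induces them. Of 10 such genes, 9 had a log2 difference above 0 with a median of 0.39, against 47.5% and -0.016 over all tested genes. With the 6 libraries as labelled, where KO replicate 1 weighs less, the log2 difference of each was lower. It was 0.73 against 0.95 for Fos and 0.51 against 0.60 for Ier2, and the smallest one above 0 was 0.064 against 0.27. Fos was read at 35.8, 16.6 and 14.7 FPKM in KO and at 12.1, 11.9 and 17.0 FPKM in wildtype, and Ier2 at 40.1, 29.5 and 30.1 against 19.2, 28.5 and 22.3 FPKM. Both were highest in KO replicate 1, the library that was also highest in Cebpb, and the part of dissection in these values was not tested.

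**Figure D4:**
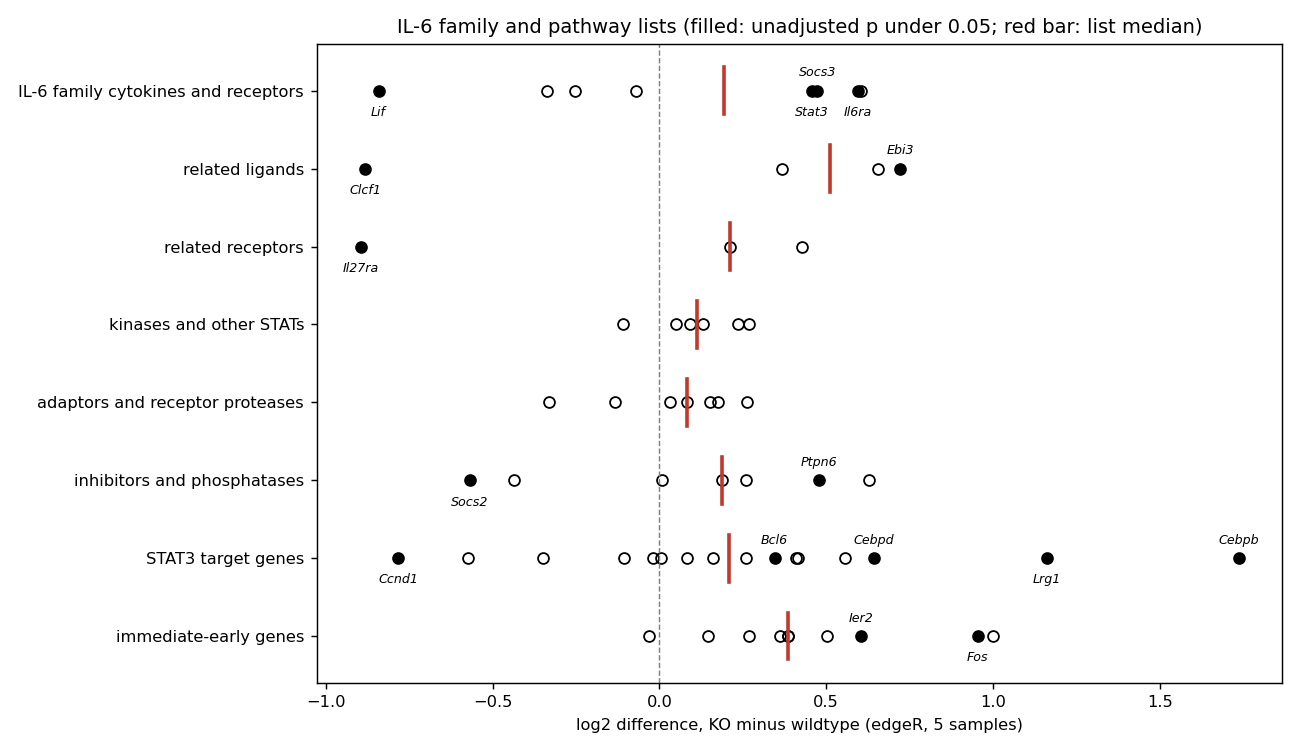
Log2 difference, KO minus wildtype (horizontal axis, edgeR on 5 samples), of each tested gene of the family and of the 7 pathway lists, filled where the unadjusted p was under 0.05 and with the list median as a red bar. Filled points lie on both sides of 0 in the family, the related ligands, the inhibitors and the STAT3 targets, and the largest differences are those of Cebpb (1.74) and Lrg1 (1.16).

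In bulk tissue, fewer cells of a type and less RNA per cell cannot be told apart, and several cell type markers differed with the groups. Neutrophil markers summed to 50528 to 62171 FPKM in KO and 26880 to 43580 FPKM in wildtype, with 9 of 10 markers higher in every KO library and none at 0 in all libraries. Of all tested genes, 11.3% were higher and 13.7% lower in every KO library than in every wildtype library. All 6 B cell markers (sums of 80.6 to 129 against 259 to 286 FPKM) and all 6 erythroid markers (11317 to 26886 against 32537 to 47999 FPKM) were lower in every KO library. Marrow stroma markers were lower for 4 of 5 (116 to 148 against 190 to 259 FPKM), and those of osteoclasts for 3 of 5 (359 to 409 against 483 to 1216 FPKM). Osm, Il6ra, Ptpn6 and Lrg1, genes that neutrophils express, lay higher in the mean of the KO libraries, and Lif and Clcf1 lower. The neutrophil sum, most of it S100a8 and S100a9, was highest in KO replicate 1. There Osm (7.30 FPKM), Il6ra (7.57), Ptpn6 (87.8) and Lrg1 (64.8) had their lowest KO values in FPKM. As log2 CPM relative to the wildtype mean, Osm was lowest in KO replicate 3 (0.59 against 0.69 in KO replicate 1). The single markers differed in order. Mpo (343 FPKM), Elane (575), Mmp8 (256) and Ltf (1090) were also lowest of the KO libraries in replicate 1, and the other neutrophil markers were highest there. Among the wildtype libraries the neutrophil sum was highest in replicate 2, where Il6ra (5.63 FPKM) and Ptpn6 (71.0) were lowest and Osm (6.39) was highest. Lrg1 (42.1 FPKM) lay between the other wildtype libraries there. The part of these cell types in the result was not tested.

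Other marker lists followed the groups less by their single markers. T and NK cell markers summed to 87.3 to 109 FPKM in KO and 64.9 to 76.7 FPKM in wildtype, with 1 of 6 higher and 2 lower in every KO library. The higher marker was Nkg7, which made up most of the sum. It was read at 77.6, 99.7 and 99.97 FPKM in KO and at 60.8, 67.1 and 52.8 FPKM in wildtype. The lower markers were Cd3d and Ncr1. Macrophage markers summed to 221 to 280 and 272 to 360 FPKM, with 3 of 7 lower. Endothelial markers summed to 23.3 to 25.8 and 24.2 to 39.6 FPKM, with 1 of 6 lower. None of the 11 chondrocyte markers separated the groups (524 to 1213 against 542 to 714 FPKM, highest in KO replicate 1). Prg4 made up most of that sum, and Col2a1 and Col11a1 were highest in wildtype replicate 1 instead (21.3 and 16.3 FPKM). The sums of fibroblast, osteoblast and muscle markers overlapped too. Of the single markers, 2 of 8 of osteoblasts and osteocytes were lower in every KO library. For fibroblasts 1 of 7 was higher and 1 lower, and no muscle marker separated the groups. KO replicates 2 and 3, the libraries with the highest Il6ra and Stat3, also had the lowest sums of B cell, erythroid, marrow stroma, macrophage, chondrocyte, fibroblast and muscle markers of the 6 libraries.

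**Figure D5:**
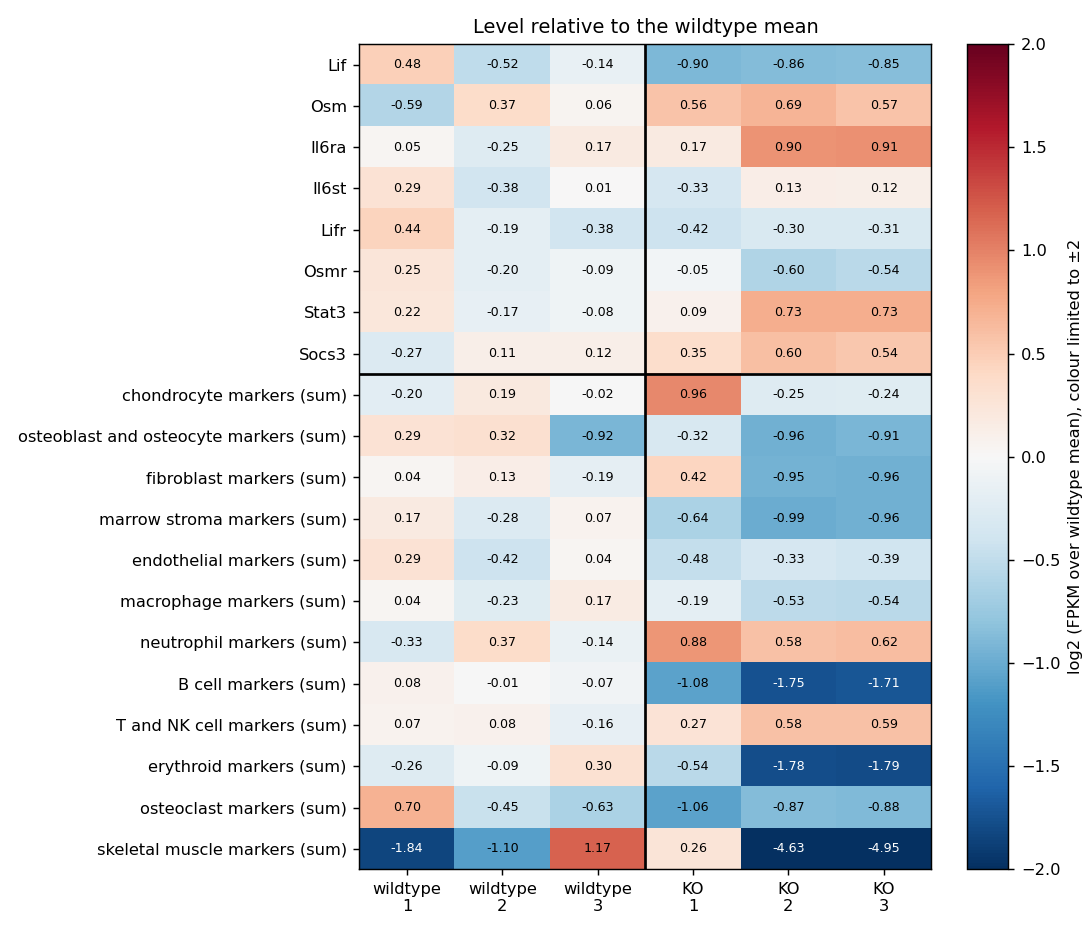
Level of the 8 tested members and of summed cell type markers in each library as the log2 of FPKM over the wildtype mean (numbers in the cells, colours limited to ±2, red higher and blue lower than the wildtype mean). KO replicates 2 and 3 share one pattern, with Il6ra at 0.90 and 0.91 and B cell markers at -1.75 and -1.71, whereas KO replicate 1 has Il6ra at 0.17 and B cell markers at -1.08, and neutrophil markers are at 0.58 to 0.88 in all 3.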

How the data were processed

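The authors deposited a table of all genes with FPKM values, scaled within each library, and counts. Per the submitters' processing notes, which give no role or order, the tools were cutadapt 1.9, HISAT2 2.0.4, UMI-tools, StringTie 1.3.4d, DESeq2 and edgeR. The libraries were strand-specific, carried molecular identifiers and were read as pairs of 150 bases, per the labels. The genome build is not given in the sources used here, and the gene positions fit GRCm38. The deposited counts were treated as estimated counts: they were whole, but the value 4 was more frequent (6596) than 3 (4170) or 5 (2332), so a count was not taken as 1 read pair. Each column was assigned to its sample by name, which left 0 unused. The knocked-out gene is not reported here.

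Counts of KO replicates 2 and 3 were averaged and rounded. The 15373 genes whose mean reached 0.5 FPKM were tested with edgeR 4.0.16 (quasi-likelihood test, TMM scaling, R 4.3.3), with Benjamini-Hochberg adjustment over all of them. Standard errors are the log2 difference over the root of F. The fit was tested on simulated data with larger differences than those of the tested members, so that test does not cover differences of their size. Log2 differences are KO minus wildtype on the scale of counts. Depth was 52268311 to 63331135 counts. Dividing the counts by 4 left the SE of Lif, the least abundant tested member, at 0.348 against 0.351.

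The members and lists were chosen with earlier results of these data known, as was the merging. Named were all members and, of each pathway list, genes with an unadjusted p under 0.05 or, if fewer, up to the 2 with the smallest p. Alternatives were the 6 libraries as labelled, DESeq2 1.42.0, median-of-ratios scaling, no filter, counts divided by 4, limma 3.58.1 on log2(FPKM + 1) and log2(FPKM + 0.1), a replicate block, and libraries left out; for ratios, 0.1 FPKM was added. Promoter sequences are those of RefSeq (GRCm38.p6).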

Additional observations from a re-analysis of the deposited data

How the results depend on the processing

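No member was called under any of the 15 alternatives. The count of members with an unadjusted p under 0.05 (4) was 5 with the 6 libraries as labelled and with no filter, 1 with limma on log2(FPKM + 1) and on log2(FPKM + 0.1), from 1 (without wildtype replicate 1, where Stat3 was left) to 4 with single libraries left out, 2 without wildtype replicate 3, and 0 without KO replicates 2 and 3. Pathway genes called (0) were 3 with the 6 libraries as labelled and with DESeq2 (Ebi3, Il27ra and Lrg1 in both), and 0 to 2 with single libraries left out, the 2 being Il4ra and Lrg1 without KO replicate 1. Leaving out single libraries gave log2 differences of -1.02 to -0.55 for Lif, 0.37 to 0.87 for Osm and -0.48 to -0.083 for Lifr. Signs turned for Il6st (0.094 without KO replicate 1, 0.076 without wildtype replicate 1) and for Osmr (0.031 without KO replicates 2 and 3). They also turned for the ratio of Osmr to Lifr (-0.084 with the 6 libraries as labelled, -0.29 to 0.15 with single libraries left out). The same held for Socs3 to Stat3 (-0.020 with the 6 libraries, -0.19 to 0.19 with single libraries left out). Without KO replicates 2 and 3 the log2 differences of these ratios were 0.33 for Osmr to Lifr and 0.26 for Socs3 to Stat3. The causes were not tested. Same-numbered libraries did not deviate together (correlations of -0.21, -0.18 and 0.0014), and with the replicate block 0 genes and 0 members were called, while 6 members and 18.3% of genes had an unadjusted p under 0.05. A KO group left with a single sample (KO replicate 1, or the merged pair) was assumed to vary like the wildtype. With counts divided by 4, no call of a member changed, and the filter on low values left Il6 and Il11 untested.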
